A study of Mus musculus with 6 samples.

Results

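A set of 8 transcription factor genes of early retinal neurons were followed in mouse retina at E15.5: Tfap2b, Lhx9, Lhx4, Klf7, St18, Rxrg, Hes6 and Pou3f3. They were taken by name, as factors known from precursors of ganglion, amacrine, horizontal, bipolar or photoreceptor cells, and all 8 of 8 had a row among the 1140 chromosome 1 rows analysed. The comparison was between T2Isl1/+ retinas, which carry 1 copy of an allele that puts Isl1 under the control of the Tbr2 (Eomes) locus, and T2fx/+ retinas, which carry 1 copy of the Tbr2 fx allele and serve as wild type. Both groups were C57BL/6 embryos of the same stage, and each had 3 RNA libraries from pools of 8 retinas. Each library mixed all retinal cells, so fewer cells of a type and less RNA per cell cannot be told apart. Isl1 expression from the Tbr2 locus would be confined to cells that use that locus, a minority of the retina. Isl1 and Eomes were not analysed here, so the allele itself was not checked.

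The retina makes its neurons from a common pool of progenitors in an overlapping order, with ganglion cells, horizontal cells, cones and amacrine cells early and rods and bipolar cells late. Which type a newborn cell becomes depends on combinations of transcription factors that act as it leaves the cell cycle. Isl1 is a LIM-homeodomain factor needed for most ganglion cells and later for bipolar and cholinergic amacrine cells. Tbr2 is a T-box factor of a ganglion cell subset that includes the melanopsin cells.

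The stretches just before the annotated starts of 3 genes are shown first, as background. No result below uses the sequences, and binding was not measured. The 3 genes were picked by their values: Tfap2b had the smallest p-value, though it did not pass the adjusted test. Rxrg had a similar level with a difference of the other sign, and Hes6 was by far the most abundant. All are reference sequence from RefSeq on GRCm38.p6, the assembly behind mm10, on chromosome 1, plus strand for Tfap2b and Rxrg and minus strand for Hes6, each 250 bases long and ending 1 base before the start. A promoter entry was matched for 7 of the 8 genes. Capitals mark TAAT on either strand, the core that homeodomain proteins such as Isl1 bind, in the Tfap2b and Rxrg stretches, and CANNTG, the E-box bound by basic helix-loop-helix proteins, in the Hes6 stretch.
Tfap2b, chr1:19211804-19212053: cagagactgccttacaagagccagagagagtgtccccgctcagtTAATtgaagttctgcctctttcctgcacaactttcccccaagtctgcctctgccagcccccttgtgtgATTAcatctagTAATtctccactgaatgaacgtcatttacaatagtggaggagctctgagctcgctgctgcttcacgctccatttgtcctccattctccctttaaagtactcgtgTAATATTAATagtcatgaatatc
Rxrg, chr1:167598112-167598361: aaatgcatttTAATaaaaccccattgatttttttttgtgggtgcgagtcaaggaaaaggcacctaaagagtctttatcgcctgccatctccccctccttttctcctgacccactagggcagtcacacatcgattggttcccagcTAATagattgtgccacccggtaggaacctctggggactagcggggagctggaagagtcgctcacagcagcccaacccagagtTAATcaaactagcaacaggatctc
Hes6, chr1:91414039-91414288: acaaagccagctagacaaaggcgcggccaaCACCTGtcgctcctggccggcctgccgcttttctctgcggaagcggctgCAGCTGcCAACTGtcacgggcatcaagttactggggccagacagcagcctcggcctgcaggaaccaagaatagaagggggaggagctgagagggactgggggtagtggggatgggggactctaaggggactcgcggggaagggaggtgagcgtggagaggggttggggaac
The Tfap2b stretch held 6 TAAT matches, counted on both strands with overlaps allowed, the Rxrg stretch 3 and the Hes6 stretch 0. The stretches of the other genes with an entry held 2 for Lhx9, 1 for Klf7, 1 for Pou3f3 and 0 for Lhx4. Among 32851 mouse promoter stretches of the same length, 54.9% held at least 1 TAAT and 3.26% held 6 or more. These shares were not matched for base composition. G and C made up 46.4% of the Tfap2b stretch, 49.2% of the Rxrg stretch and 63.6% of the Hes6 stretch. The Hes6 stretch held 3 E-boxes, the Tfap2b stretch 1 and the Rxrg stretch 0, against 66.2% of all stretches with at least 1. Rxrg and Hes6 each have a second annotated start, not shown, whose stretch held 1 TAAT and 2 E-boxes for Rxrg and 0 TAAT and 1 E-box for Hes6. A match describes the letters only. The Tfap2b stretch lies inside the locus that the authors measured, which begins at an earlier start, and overlaps no annotated exon.

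The 8 genes covered a wide range of levels, and none was called changed. Levels are FPKM (fragments per kilobase of transcript, relative to all mapped fragments), 1 value per genotype into which the authors had combined the libraries, so no SD can be given. Of the 8, 7 had been tested by the authors and 0 had an adjusted p-value (q-value) under 0.05, where 1.55% of the 646 tested rows did. At an unadjusted p-value under 0.05, 1 of the 7 was lower, Tfap2b, against 2.63% of tested rows, and 0 were higher, against 1.08%. Relative to T2fx/+, 3 of the 7 were above and 4 below, while 54.6% of all tested rows were above. Lhx4, one of the 3, is below when the median of tested rows is set to 0. The median log2 fold change (T2Isl1/+ over T2fx/+, no pseudocount) was -0.05 for the 7 genes and 0.01 for all tested rows. All 7 differed by less than 1.5-fold, as did 96.7% of tested rows.

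**Figure D1:**
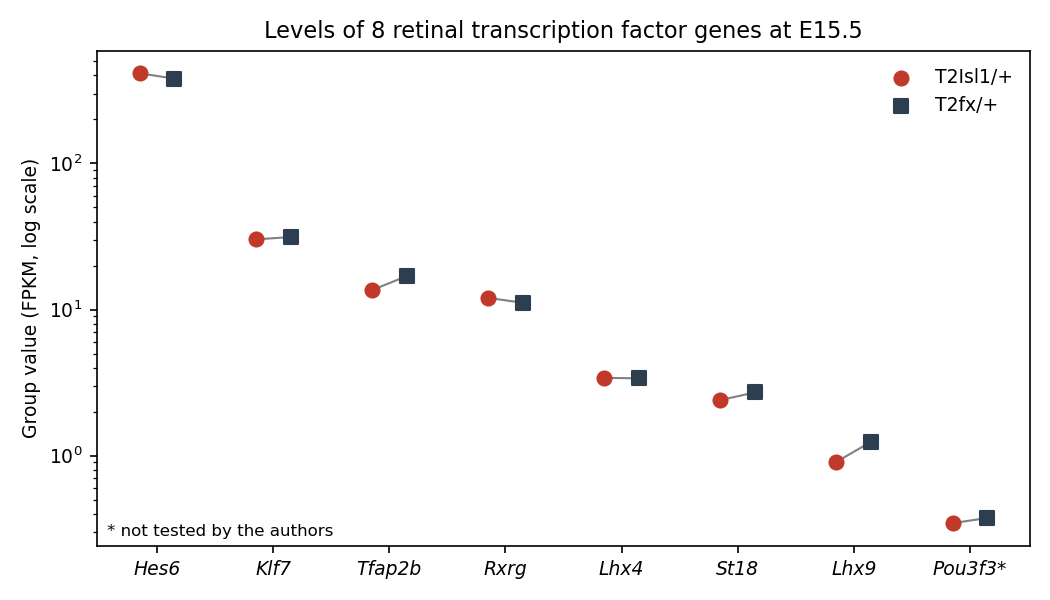
FPKM on a log scale for the 8 genes, ordered by level, with 1 point per genotype (circles T2Isl1/+, squares T2fx/+); each point is the authors' combined value and has no error bar. The order of the genes is the same in both genotypes, and the pairs lie close together next to the spread between genes.

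The order of levels did not differ between the genotypes. In the authors' deposited table Hes6 stood first, followed by Klf7, Tfap2b, Rxrg, Lhx4, St18, Lhx9 and Pou3f3. Hes6 alone made up 86.8% of the summed FPKM of the 8 genes in T2Isl1/+ and 85.0% in T2fx/+ retinas. The step from Hes6 to Klf7 was 13.7-fold in T2Isl1/+ and 12.1-fold in T2fx/+. The closest neighbours were Tfap2b and Rxrg, with a ratio of 1.13 in T2Isl1/+ and 1.52 in T2fx/+, and Lhx4 and St18, with 1.42 and 1.25 in the same order. Whether such neighbours differ beyond the spread of libraries could not be judged from 1 value per group.

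Among the ganglion cell factors, Klf7, St18 and Rxrg did not pass the test and differed by less than 1.5-fold. Klf7, a Krüppel-like zinc-finger factor that promotes neurite growth, had 30.2 FPKM in T2Isl1/+ and 31.3 FPKM in T2fx/+ retinas in the authors' deposited table. Its log2 fold change of -0.05 had an unadjusted p of 0.717 there. Klf7 (chromosome 1, 64029514 to 64122299, minus strand, mm10) ranked 133 by level among tested rows in T2Isl1/+ and 132 in T2fx/+. Of its annotated exon bases, 39.3% are shared with the opposite-strand noncoding gene Gm26649, and the sources used here do not state whether counting used strand, so reads of the pair could not be told apart.

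St18, a zinc-finger factor of the Myt1 family, had 2.40 FPKM in T2Isl1/+ and 2.71 FPKM in T2fx/+ retinas in the authors' deposited table. That is 11.5% lower in T2Isl1/+, a log2 fold change of -0.18. The unadjusted p in the authors' deposited table was 0.311. St18 (6487231 to 6861115, plus strand) is the longest of the 8 loci at 373885 bases, with 13 annotated transcripts. The third gene, Rxrg (167598362 to 167639623, plus strand), encodes a retinoid X receptor found in ganglion cell and cone precursors and is a partner of the thyroid hormone receptor in cones. The authors' deposited table gave Rxrg 12.0 FPKM in T2Isl1/+ and 11.1 FPKM in T2fx/+, a log2 fold change of 0.11 with an unadjusted p of 0.39. Its annotated start is the one shown above, at the first base of the measured locus.

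Tfap2b had the smallest p-value of the 7 tested genes. It encodes an AP-2 factor of postmitotic amacrine and horizontal cell precursors. Tfap2b (19208914 to 19238845, plus strand) had 13.6 FPKM in T2Isl1/+ and 16.9 FPKM in T2fx/+ retinas in the authors' deposited table, 19.9% lower in T2Isl1/+. The log2 fold change was -0.32 (unadjusted p = 0.008, q = 0.807, the authors' deposited table). The authors' test score was -1.52, for which a normal test would give a p of 0.128. Such a normal p was larger than the deposited one in 637 of 646 tested rows. The difference did not pass the adjusted test. The pools also differed in lens crystallins and some muscle and mesenchyme markers, given below, whose part in the Tfap2b difference was not tested. By unadjusted p it ranked 16 of 646 tested rows, and by size of change 57. Across the 244 tested rows with 5 to 20 FPKM in the higher group, the central 90% of log2 fold changes ran from -0.18 to 0.22. In that range 3 rows were at -0.32 or below: Tfap2b and the mesenchyme markers Col3a1 (-3.18) and Col5a2 (-0.52).

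The neighbouring gene Tfap2d had almost the same level in both genotypes. Tfap2d encodes another AP-2 factor and lies 40.2 kb before Tfap2b on the same strand. It had 8.84 FPKM in T2Isl1/+ and 8.81 FPKM in T2fx/+ retinas in the authors' deposited table (log2 fold change 0.01, unadjusted p = 0.973). The difference between the changes of both genes could not be tested.

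Lhx9 and Pou3f3, the other amacrine and horizontal cell factors, were the least abundant of the 8 genes. Lhx9, a LIM-homeodomain factor of a subset of amacrine cells, had 0.907 FPKM in T2Isl1/+ and 1.25 FPKM in T2fx/+ retinas in the authors' deposited table. Its log2 fold change of -0.46 was the lowest of the 8, yet its unadjusted p was 0.158 in the authors' deposited table. Low genes varied more: of the 96 tested rows under 2 FPKM, the central 90% ran from -0.93 to 0.55, and 10, Lhx9 included, were at its value or below. Within that level range only 3 rows had an unadjusted p under 0.05, the smallest change among them being 2.43 on the log2 scale. With 1 FPKM added to both groups, Lhx9 in the authors' deposited table came to -0.24 on the log2 scale. Lhx9 lies at 138825186 to 138847579 on the minus strand.

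Pou3f3, an intronless gene for a POU factor also known as Brn1, had 0.345 FPKM in T2Isl1/+ and 0.374 FPKM in T2fx/+ retinas in the authors' deposited table. The authors did not test it, and the highest value of any untested row was 0.516 FPKM. The measured locus (42697146 to 42700209, plus strand) covers 41.4% of the gene as annotated in GENCODE M21, which runs from 42695768 to 42703176. The value therefore counts reads from part of the annotated transcript.

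Lhx4 had almost the same level in both genotypes. This LIM-homeodomain factor of cone bipolar cells and cone precursors (155697872 to 155751710, minus strand) had 3.41 FPKM in T2Isl1/+ and 3.38 FPKM in T2fx/+ retinas in the authors' deposited table. Its log2 fold change of 0.01 had an unadjusted p of 0.955, and 605 tested rows changed more. Of the LIM-homeodomain genes, which include Isl1 itself, Lmx1a also had a row. It was at 0.0154 FPKM in T2Isl1/+ and 0.00539 FPKM in T2fx/+ retinas in the authors' deposited table and was not tested. Lhx9 and Lhx4 thus stood at -0.46 and 0.01 on the log2 scale, and the difference between them was not tested.

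Hes6 was among the most abundant transcripts measured. It encodes a basic helix-loop-helix protein that opposes Hes1 and promotes neuronal differentiation. In the authors' deposited table Hes6 had 414 FPKM in T2Isl1/+ and 380 FPKM in T2fx/+ retinas, rank 5 of 646 tested rows in each. The log2 fold change of 0.12 was the highest of the 8, with an unadjusted p of 0.309 in the authors' deposited table. Hes6 (91411481 to 91414051, minus strand) is the shortest of the 8 loci at 2571 bases. Per2, a circadian clock gene and the nearest tested row past the Hes6 start at 1.93 kb, had 1.08 FPKM in T2Isl1/+ and 1.28 FPKM in T2fx/+ retinas in the authors' deposited table, with an unadjusted p of 0.235.

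**Figure D2:**
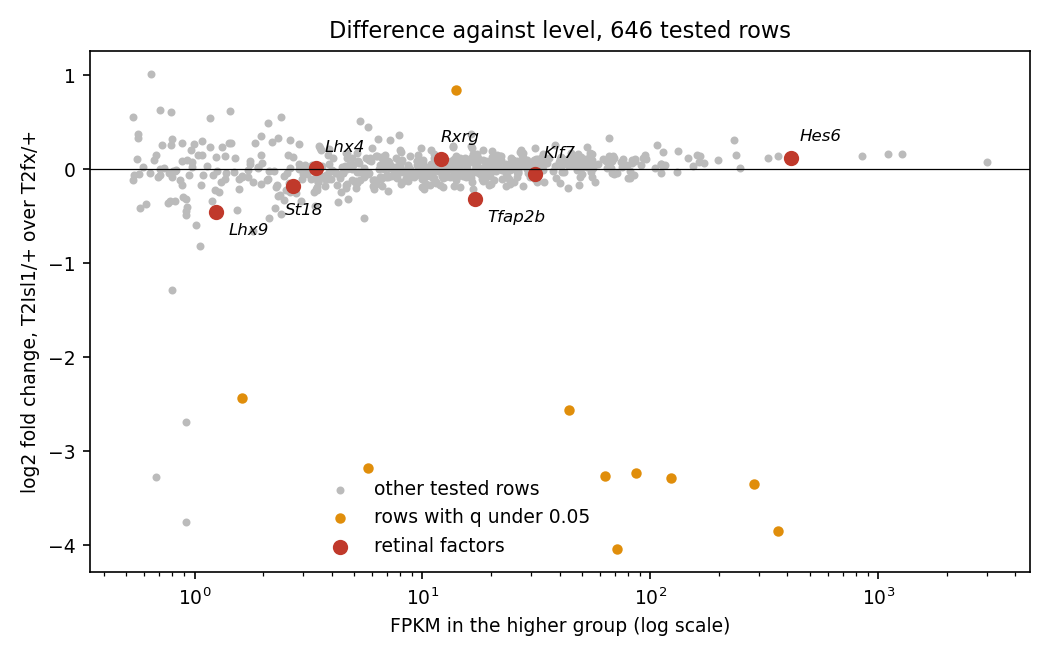
Log2 fold change (T2Isl1/+ over T2fx/+) against the FPKM of the higher group on a log scale for the 646 tested rows; red points are the 7 tested retinal factors and orange points are the 10 rows with a q-value under 0.05. The 7 factors lie between -0.46 and 0.12, and the 9 called rows with lower values in T2Isl1/+ lie far below them.

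Genes next to the 8 loci showed no called difference. The nearest tested row on each side gave 16 rows, 1.93 to 2016 kb away, of which 10 were above T2fx/+ and 0 had an unadjusted p under 0.05 in the authors' deposited table. Of all 646 tested rows, 54.6% were above. At that p-value 2.63% were lower and 1.08% higher, and 1.55% had a q-value under 0.05. With such shares, 0 of 16 says little about these loci. Their log2 fold changes ran from -0.24 for Per2 to 0.21 for Fastkd2, a mitochondrial RNA-binding protein gene, with a median of 0.03. The rows beside Lhx9 were Nek7, a mitotic kinase gene, at 0.12 and 2310009B15Rik at 0.09, both above T2fx/+ in the authors' deposited table.

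Other factors of the same cell types were few among the rows analysed. Cell type and family lists named 95 genes in all, 11 of which had a row and 9 a test. The 9 tested were the 7 genes above, Tfap2d and Esrrg. Of them 0 were called, where 1.55% of the 646 tested rows were, so this count says little. Esrrg, an orphan nuclear receptor gene, had 4.68 FPKM in T2Isl1/+ and 5.16 FPKM in T2fx/+ retinas in the authors' deposited table. By list, 3 of 22 ganglion cell factors were tested (median log2 fold change -0.05, 1 above and 2 below T2fx/+). Of 20 amacrine and horizontal cell factors 4 were tested, with a median of -0.23, 1 above and 3 below. The 2 tested of 14 photoreceptor factors were Rxrg and Lhx4, Lhx4 was the 1 tested of 11 bipolar factors, and Hes6 was the 1 tested of 23 progenitor and neurogenic factors. For all tested rows the median was 0.01.

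**Figure D3:**
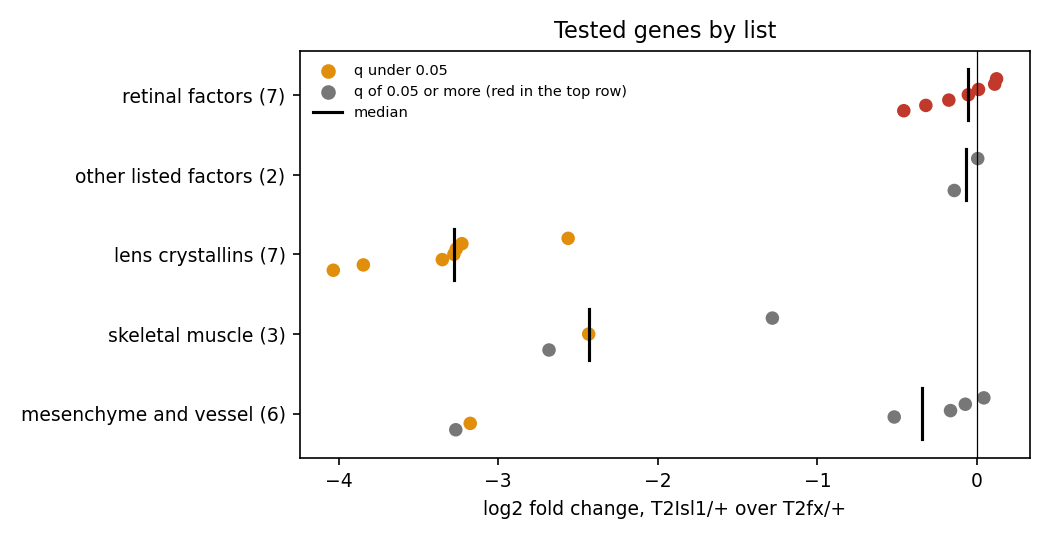
Log2 fold change (T2Isl1/+ over T2fx/+) of each tested gene by list, with the number tested in brackets, orange for a q-value under 0.05 and a black line at each median. The retinal factors lie between -0.46 and 0.12, while all 7 lens crystallins lie at -2.56 or below.

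Lens crystallins, and some muscle and mesenchyme markers, differed between the pools far more than any of the 8 genes, while others did not. On the mesenchyme and vessel list, Twist2 had a log2 fold change of -3.27, Col3a1 of -3.18, Col5a2 of -0.52 and Fn1 of -0.17. In the authors' deposited table Rgs5 of pericytes had one of -0.07 and Cd34 of vessels one of 0.04. The median of that list was -0.34, with 5 below and 1 above T2fx/+. All 7 tested lens crystallins were called lower in T2Isl1/+, and their list summed to 93.6 FPKM in T2Isl1/+ and 1038 FPKM in T2fx/+ retinas in the authors' deposited table. Lgsn, also on that list, was listed at 0 in both. The skeletal muscle list summed to 1.44 FPKM in T2Isl1/+ and 4.20 FPKM in T2fx/+ retinas over 7 rows in the authors' deposited table, with 1 of 3 tested genes called lower and Chrnd listed at 0 in both. The mesenchyme and vessel list summed to 29.3 FPKM in T2Isl1/+ and 38.1 FPKM in T2fx/+ retinas over 6 rows there, with 1 of 6 called lower. Their part in the Tfap2b and Lhx9 differences was not tested. Scaling both groups to the summed FPKM of the chromosome 1 rows without the lens list lowered every log2 fold change by the same 0.072. Rows of other chromosomes did not enter, so this is not a correction for the whole library. The values became -0.39 for Tfap2b, -0.53 for Lhx9, -0.25 for St18, -0.13 for Klf7, -0.06 for Lhx4, 0.04 for Rxrg and 0.05 for Hes6. Retinal genes were present in both pools: Fzd5, a Wnt receptor gene of progenitors, had 66.2 FPKM in T2Isl1/+ and 68.0 FPKM in T2fx/+ in the authors' deposited table. In the same order Cntn2, an axonal adhesion gene, had 38.0 and 43.6 FPKM, and Crb1 had 12.9 and 14.0 FPKM. Their log2 fold changes were -0.04 for Fzd5, -0.20 for Cntn2 (the authors' unadjusted p = 0.092) and -0.11 for Crb1. The retina markers Hes6 and Rxrg were above T2fx/+.

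The sign of the difference went along with transcript length. The 2 genes with the shortest transcripts, Hes6 (1573 bases for the longest annotated transcript) and Rxrg (2110 bases), were above T2fx/+. Of the 5 with transcripts of 4937 bases or more, 4 were below: Lhx9 (4937 bases), Tfap2b (5863), St18 (5892) and Klf7 (7662). Lhx4 (5514) was at 0.01. All tested rows with a known length were split by length into 5 equal groups. In the shortest group the median log2 fold change was 0.09 and 28.5% of rows were below T2fx/+. In the longest group, that of Klf7, these were -0.08 and 77.9%. The fourth group, which holds Lhx9, Tfap2b, St18 and Lhx4, had a median of -0.01 with 54.1% of rows below. Set against the median of its own length group, Hes6 was at 0.03, Rxrg at 0.02 and Klf7 at 0.03. Tfap2b, by the same measure, was at -0.31, Lhx9 at -0.45 and St18 at -0.17, close to their deposited values. The part of length in these differences was not tested.

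**Figure D4:**
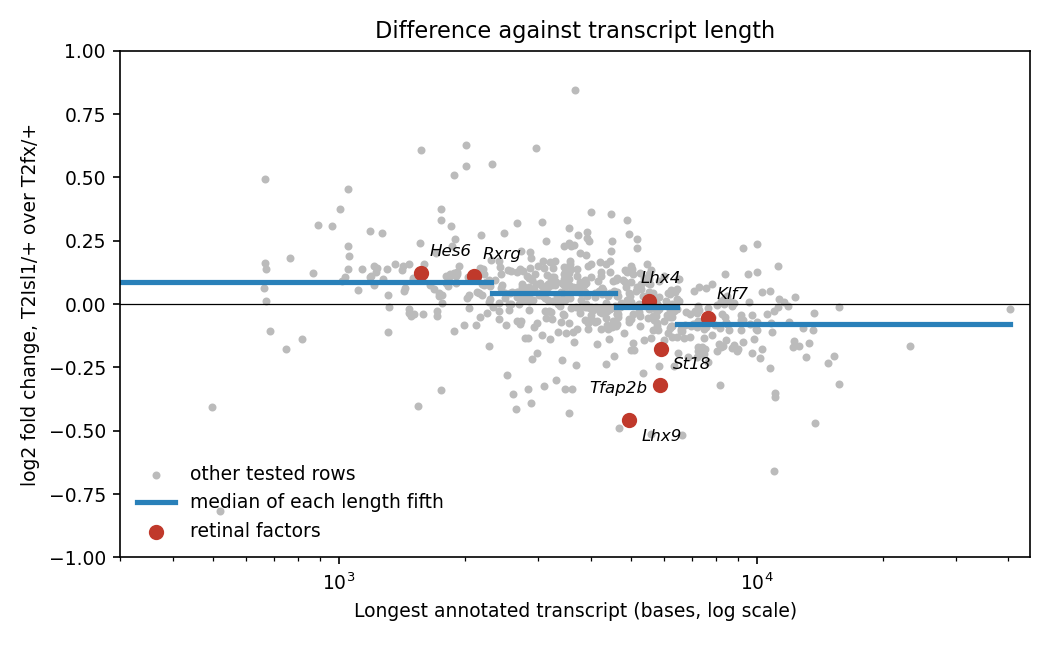
Log2 fold change (T2Isl1/+ over T2fx/+) against the longest annotated transcript on a log scale for tested rows with a length; blue lines are the medians of 5 equal groups by length and red points the retinal factors, with 15 other rows outside the axes. Hes6, Rxrg, Klf7 and Lhx4 lie on or near the line of their group, and Tfap2b, Lhx9 and St18 lie below theirs.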

How the data were processed

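Total RNA libraries, 3 per genotype, were compared by the authors. Cufflinks 2.1.1, TopHat2 2.1.1, CASAVA and the build mm10 are listed, without an order, in the submitters' processing notes. The deposited table has 1 value per gene and group, read as FPKM from the tool named, since the header does not name a unit. As deposited, per the file headers, come also the authors' test score, p-value, q-value and log2 fold change. The log2 fold change matched the ratio of the values within 1.06e-05. Of 1140 complete chromosome 1 rows, 646 had been tested. Other chromosomes were not analysed here, and 1 incomplete row was left out. Starts had 1 added, since the table counts from 0.

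No new test was made: library values were not used here, depth is unknown, and no replicate error can be given. A standard error was to be read from the test score if score and p-value followed a normal test. They did not (637 of 646 rows had a larger normal p, 0.128 for Tfap2b), so none is given. The labels do not say whether pools shared litters.

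The members, lists and tests were chosen with earlier results of these data known. The genes named are the 8 members, listed factors with a row, the nearest tested rows and marker lists. Per2, Fastkd2, Nek7, 2310009B15Rik, Fzd5, Cntn2, Crb1 and the genes of the mesenchyme and vessel list were singled out after their values were seen. Lengths and overlaps came from GENCODE M21 (found for 611 of 646 tested rows, 94.6%), and promoters from RefSeq. Calculations used Python 3.11.15, pandas 2.3.3 and SciPy 1.17.1. The p-value adjustment and the medians of length groups were tested on simulated data, and the motif search on short known sequences. The other steps were not tested in this way. Alternatives covered thresholds, floors, pseudocounts and scaling. A further result is left out of this account.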

Additional observations from a re-analysis of the deposited data

How the results depend on the processing

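The count of called genes was 0 at a q-value under 0.05 or 0.01, with floors of 1 or 5 FPKM, and with the authors' p-values adjusted over the 646 rows alone (Tfap2b 0.323). The smallest q-value of any tested row was 0.0116, so the limit of 0.01 could call no row. Floors only remove genes. A stricter limit or a floor therefore could not raise a count of 0, and these settings say nothing about stability. With unadjusted p-values under 0.05 it was 1 lower (Tfap2b) and 0 higher. The median log2 fold change of the 7 tested genes turned from -0.05 to 0.029 for the 4 with at least 5 FPKM, where fewer genes enter, and to 0.020 relative to the 5 length groups. It was -0.05 with a pseudocount of 1 FPKM. Lhx4 turned to -0.0029 with the median of tested rows set to 0 and to -0.062 when scaled without the lens list. Klf7 turned to 0.027 relative to its length group. For these single genes the cause was not tested. Of 39 settings of single genes, 33 moved by less than the median absolute log2 fold change of tested rows (0.09) with the same sign, 3 moved more and 3 changed sign. Setting the median of tested rows to 0 and scaling without the lens list shift every gene by the same amount, 0.013 and 0.072. Both lie under that limit, so these settings could change a sign but could not count as moving more. The setting relative to length groups also subtracts 1 fixed value per group. In the shortest group, that of Hes6 and Rxrg, it was 0.0890, just over the limit of 0.0878, so neither could count as the same. In groups 4 and 5, which hold the other tested genes, it was -0.0096 and -0.080, under the limit in size. The settings relative to length groups, and the median with tested rows set to 0, were added after seeing the data. No paired analysis was possible because each genotype has a single combined value without replicate numbers. For the same reason leaving out each replicate was not run. Levels near 1 FPKM, where Lhx9 lies, limit what can be detected.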
